A study of Homo sapiens with 4 samples.

Results

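The transcriptome described here is that of untreated HAP1 cells that lacked both RING1A and RING1B (dKO), read by RNA-seq in 2 libraries, which are 2 of the 4 libraries of the series. The members were chosen by the titles and the genotype label, and the values are the counts per gene on the strand that the library kit reads. The remaining 2 libraries, from cells with a further inactivation of BAP1, are not compared here. HAP1 is an adherent, nearly haploid human line that descends from KBM-7, a chronic myeloid leukaemia line. RING1A (gene symbol RING1) had been disrupted with a STOP cassette carrying a drug resistance gene and a polyadenylation signal. HAP1 cells without RING1B (gene symbol RNF2) were bought by the study, and the order of the inactivations is not given in the sources used here. Edited cells were grown out from picked clones, so that what was measured may be particular to a clone. Both libraries carried both inactivations, and the study describes its libraries as independent biological replicates. No unedited HAP1 library was analysed here, so that no value below says what the loss of RING1A and RING1B changed.

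RING1A and RING1B are the catalytic subunits of Polycomb repressive complex 1 (PRC1), which attaches ubiquitin to histone H2A at silenced genes. Genes that Polycomb complexes hold silent in many cell types include developmental transcription factors, secreted signalling proteins and their receptors, and their promoters are often rich in CpG dinucleotides. A cell line usually expresses the genes of growth and division together with the regulators and structural genes of a few lineages, and most tissue-specific effector genes are silent in it.

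Counts assigned to genes numbered 18455410 in library 1 and 17990784 in library 2, and levels are given as CPM, counts scaled to a common total of 1000000 per library. At this depth 3 counts are worth 0.163 CPM in library 1 and 0.167 CPM in library 2. A gene was called on at 1 CPM or more in both libraries, off at 3 counts or fewer in both, and trace in between. A gene that is off may still be transcribed below this depth. Of 57820 genes in the files, 13509 (23.4%) were on, 4146 were trace and 40165 were off, and 34113 of the last had no count in either library. Of 19404 protein-coding genes, 11984 (61.8%) were on, 1220 (6.29%) were trace and 6200 (32.0%) were off. These shares of protein-coding genes are the background for every list below. Of families typical of sensory or epidermal cells, 380 of 382 olfactory receptors, 92 of 92 keratin-associated protein genes and 39 of 40 beta-defensin genes were off. Bitter taste receptors were less uniform, with 15 of 24 off, 7 trace and 2 on. The only olfactory receptor that was on was OR2W3, at 3.09 CPM in library 1 and 4.28 in library 2.

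The targeted genes differed in how much transcript remained. RING1 had 12 and 17 counts in libraries 1 and 2 (0.65 and 0.945 CPM), which is trace in both libraries. RNF2 was on at 77 CPM in library 1 and 86.8 in library 2, and counts of its transcript say nothing about RING1B protein. By western blot, the study reported that the ubiquitin mark of PRC1 on histone H2A was entirely missing from its dKO cells. BAP1, the ubiquitin hydrolase that removes the mark PRC1 places, was not targeted in these cells and was on at 111 CPM in library 1 and 112 in library 2. BCR and ABL1, the genes fused in chronic myeloid leukaemia, were both on, BCR at 26.3 and 25.6 CPM and ABL1 at 40.4 and 35.7 CPM. Counts per gene cannot tell a fusion transcript from the separate genes.

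Transcripts of the mitochondrial genome and of the machinery for splicing, translation, glycolysis and protein folding were the most abundant. The 20 most abundant genes together took 5.29% of the counts of library 1 (95% Wilson interval, 5.28 to 5.30%) and 5.21% of library 2 (5.203 to 5.224%), and 1331 genes in library 1 and 1347 in library 2 held 50% of the counts. Such intervals account for counting error alone and treat reads as independent. PCR copies of a molecule are not independent, so the intervals may be too narrow even for that error. MT-ND4, a subunit of respiratory complex I, ranked first by mean level at 3760.5 CPM in library 1 and 4086 in library 2. MT-CO3 and MT-CO1, subunits of cytochrome c oxidase, followed at 3474 and 3918 CPM and at 3176 and 3865 CPM in libraries 1 and 2. Of the 20 genes, 7 lie in the mitochondrial genome.

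The nuclear gene with the highest mean CPM was HNRNPA2B1, a splicing factor, at 3268 CPM in library 1 and 3479.7 in library 2. PEG10, a paternally expressed imprinted gene derived from a retrotransposon, followed at 3504 CPM in library 1 and 2665 in library 2. The translation factor EEF2 reached 2694 and 2977 CPM and the ribosomal protein gene RPL4 reached 2208 and 2421 CPM in libraries 1 and 2. The glycolytic enzymes among the 20 were PKM at 2939 and 2663 CPM, ENO1 at 2589.9 and 2653 CPM and GAPDH at 2113 and 2043 CPM. The chaperones were HSP90AA1 at 2731 and 2445 CPM, HSPA8 at 2614 and 2021 CPM and HSP90AB1 at 2267 and 2083 CPM. NCL, the nucleolar protein nucleolin, stood at 2387 and 2359 CPM, and the actin genes and filament proteins were represented by FLNA at 2441 and 2055 CPM and ACTG1 at 1935 and 1705 CPM. The genes for which the libraries lay farthest apart were MT-RNR2, the large mitochondrial ribosomal RNA, at 2477 CPM in library 1 and 1621 in library 2, and PEG10.

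**Figure D1:**
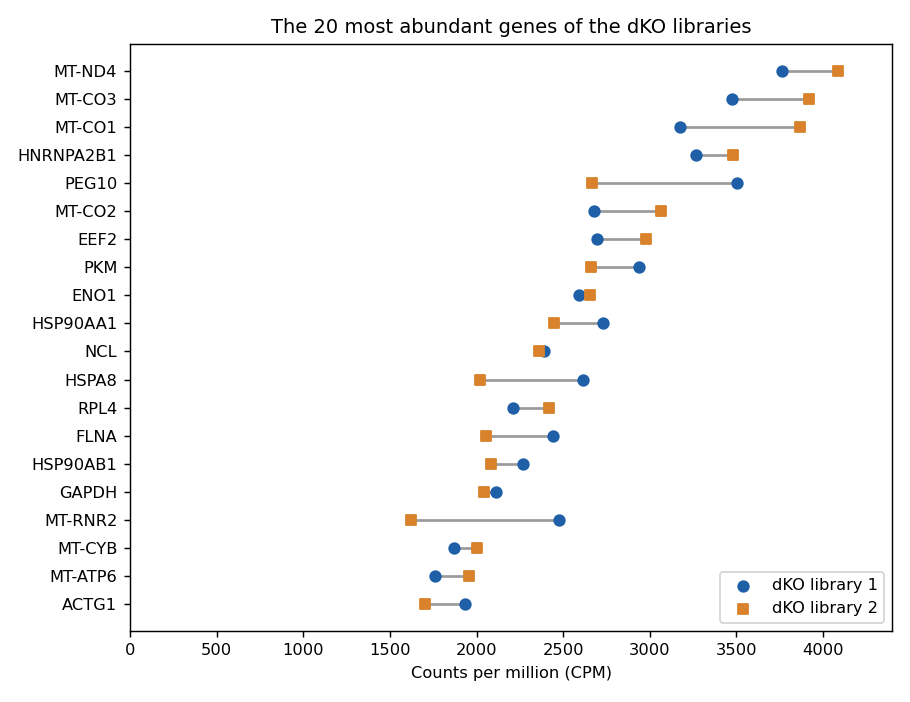
CPM of the 20 genes with the highest mean level in the 2 dKO libraries (circles for library 1, squares for library 2, joined by a line). MT-ND4 is highest at 3760.5 and 4086 CPM, and MT-RNR2 and PEG10 show the widest gaps between the libraries.

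CPM rises with the length of a transcript, so genes were also ranked by CPM per kilobase of merged exons. On this scale all 10 leading genes were protein-coding genes of the mitochondrial genome. MT-CO3 led with a mean of 4714 CPM per kb, ahead of MT-CO2 with 4200.5 and MT-ND4 with 2847. With the length of the canonical transcript in place of merged exons, 8 of the 10 stayed, and the noncoding SNHG29 was among those that entered.

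By biotype, nuclear protein-coding genes took 95.3% of the counts of library 1 and 95.2% of library 2, and the 13 mitochondrial protein-coding genes took 2.33% and 2.47%. Long noncoding RNAs took 0.959% and 1.03%, although 870 of 13043 were on. The highest in CPM was SNHG29, a host transcript of small nucleolar RNAs, at 811 and 849 CPM, ahead of SNHG1, another such host, at 307 and 344 CPM. Pseudogenes took 0.391% and 0.395% with 351 of 14204 on. The highest, MTCO3P12 at 536 and 632 CPM, is a nuclear copy of MT-CO3, and which of the near-identical copies its reads came from is uncertain. Mitochondrial ribosomal RNA took 0.317% of library 1 and 0.213% of library 2. The intervals of these shares (0.314 to 0.319% and 0.211 to 0.215%, Wilson) cover counting error alone and did not overlap. Nor did those of nuclear and mitochondrial protein-coding genes, long noncoding RNAs, mitochondrial transfer RNAs and genes with no annotation entry. Those of pseudogenes, small RNAs and the segments of immunoglobulins and T cell receptors overlapped. Small RNAs took 0.0135% and 0.0127%, in libraries made from polyadenylated RNA. Genes with no entry in the annotation took 0.732% and 0.713%.

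Of the cytosolic ribosomal protein genes, 80 of 84 were on and took 4.11% of library 1 and 4.47% of library 2. Of the proteasome subunit genes, 33 of 39 were on. Of the replication-dependent histone genes, whose main transcripts lack a poly(A) tail, 9 of 33 were on, and the highest, H2BC12, reached 12.9 and 12.7 CPM. Of the HOX genes, a textbook group of Polycomb targets, 26 of 39 (66.7%) were on, with HOXA13 highest at 125.5 and 143 CPM in libraries 1 and 2, beside 61.8% of all protein-coding genes.

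Some regulators of many lineages were on, and the share on was lower among the genes that carry out the lineages' functions. Of 170 entries in 11 lineage lists (CDX2 stands in 2 of them), 66 (38.8%, beside 61.8% of protein-coding genes) were on, 18 were trace and 86 were off. Transcription factors and other regulators were on in 32 of 65 cases (49.2%), and surface, structural and secreted genes of the same lineages in 21 of 70 (30.0%). Both shares lay below that of protein-coding genes. By list, regulators and other genes were on in 6 of 9 and 1 of 13 haematopoietic cases. They were on in 3 of 9 and 0 of 6 for endoderm and liver and 7 of 13 and 0 of 6 for mesoderm and muscle. The neural list had 6 of 10 and 7 of 14, and the mesenchymal list went the other way with 4 of 7 and 8 of 12. Lists that were not divided had 13 of 35 on. The mean level over the members of a class had a median of 0.372 CPM per kb for regulators and 0.0161 for the surface, structural and secreted genes. Where a gene is said to lead a list, it did so by mean CPM per kb of merged exons, while the values printed are CPM. PECAM1 and LHX1 of these lists were not analysed here and are not counted. In the endoderm and liver list, 9 of 10 regulators were analysed and counted.

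The regulators that were on came from several lineages at the same time. Among haematopoietic regulators, 6 of 9 were on. GATA2, a factor of blood stem and progenitor cells, stood at 38.3 CPM in library 1 and 33.7 in library 2. TAL1, which acts with GATA factors in early blood cells, stood at 27.3 CPM in library 1 and 27.3 in library 2, and MYB, needed for progenitor growth, at 23.1 and 29.5 CPM. LMO2, which bridges TAL1 and GATA factors, stood at 2.66 and 4.61 CPM. RUNX1 was at 16.1 and 13.4 CPM and IKZF1 at 3.68 and 4.11 CPM, while SPI1 and GATA1 had 0 counts in both libraries. Of the 13 haematopoietic surface and effector genes, 1 was on, ITGA2B, the platelet integrin chain, at 15.6 and 19.8 CPM. PTPRC, which encodes the pan-leukocyte antigen CD45, had 0 counts in both libraries, as did VAV1, CD3E, MPO, HBB and HBG1. The other 12 were trace in 2 cases and off in 10, in a line of leukaemic origin.

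Of 19 epithelial genes 3 (15.8%) were on, beside 61.8% of protein-coding genes. Of 19 mesenchymal genes 12 (63.2%) were on, a share near that of protein-coding genes at large. Of 6 junction and adhesion genes, 1 was on, OCLN at 7.69 and 9.17 CPM, and CDH1, the epithelial cadherin, and EPCAM had 0 counts in both libraries. KRT18 was on at 22.2 and 22.8 CPM, and KRT5, KRT7, KRT14 and KRT19 had 0 counts in both. KRT18 has many processed copies in the genome, which can take reads from it. GRHL1 was the only one of 7 epithelial regulators that was on, at 17.6 and 16.7 CPM, and GRHL2 had 0 counts in both. ZEB1 and ZEB2, which repress epithelial genes, were on at 80.5 CPM in library 1 and 90.4 in library 2 and at 88.5 CPM in library 1 and 99.6 in library 2. TWIST1 stood at 8.89 and 7.56 CPM and SNAI1 at 2.76 and 1.95 CPM, and SNAI2 and TWIST2 were off. VIM, the intermediate filament of mesenchymal cells, was on at 514 CPM in library 1 and 479 in library 2. CDH2, the neural cadherin, stood at 131 and 136 CPM, PDGFRA at 96.9 and 104 CPM and FN1, fibronectin, at 99.6 and 99.2 CPM. Of the 12 genes of cytoskeleton, adhesion and matrix, 8 were on. Among those that fibroblasts and smooth muscle cells express, COL1A1, a collagen chain, stood at 10.5 and 12.8 CPM, SPARC, a matrix protein, at 12.3 and 13.2 CPM, ACTA2, smooth muscle actin, at 4.55 and 5.78 CPM and TAGLN, an actin-binding protein, at 2.66 and 2.22 CPM. COL1A2, COL3A1, CDH11 and PDGFRB had 0 counts in both libraries.

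SOX2 had the highest level per kilobase of all lineage genes, with a mean of 296 CPM per kb. It is a transcription factor of pluripotent and neural stem cells and stood at 661 CPM in library 1 and 828 in library 2. MYC stood at 683 CPM in library 1 and 844 in library 2 and POU5F1, the pluripotency factor OCT4, at 69.5 CPM in library 1 and 77.5 in library 2. POU5F1 has expressed near-copies, and its counts are uncertain to that extent. MYCN was on at 4.06 and 5.39 CPM. NANOG and SALL4 were off, and PRDM14 and ZFP42 had 0 counts in both libraries. DPPA4, a chromatin protein of pluripotent cells, was on at 250.3 and 236 CPM, LIN28B, an inhibitor of let-7 microRNA processing, at 90.3 and 95.5 CPM and DNMT3B at 36.2 and 35.7 CPM. LIN28A, TDGF1 and DNMT3L had 0 counts in both. Of 17 pluripotency genes, 8 were on, so that members of this network were on beside members that were off.

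Neural regulators were on in 6 of 10 cases. PAX6, a factor of the eye and of neural progenitors, stood at 47.1 CPM in library 1 and 51.5 in library 2. NEUROG2, which drives neurogenesis, stood at 26.5 and 28.7 CPM, OLIG2, of the oligodendrocyte and motor neuron lineages, at 20.3 and 21.6 CPM and SOX1, of neural progenitors, at 7.31 and 6.06 CPM. SOX3, SOX11 and NEUROD1 had 0 counts in both libraries. NES, the filament nestin of neural progenitors, was on at 181 CPM in library 1 and 205 in library 2. The axonal protein gene GAP43 stood at 13.9 and 13.4 CPM, MAP2 at 33.3 and 45.7 CPM and SYP, of synaptic vesicles, at 5.85 and 5.73 CPM. DCX and ELAVL4, which mark young neurons, had 0 counts in both.

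Factors of germ layers and organs were also on without the products of those organs. FOXA1, a pioneer factor of endoderm, stood at 68 and 59.9 CPM, CDX2, of intestine and trophoblast, at 14.8 and 15.8 CPM and GATA6 at 6.61 and 5.84 CPM. FOXA2, SOX17, HNF4A and PDX1 had 0 counts in both libraries, and none of the 6 secreted liver proteins was on (ALB was trace, AFP off, and TTR and APOB at 0 counts). TBX5, a factor of heart and forelimb, stood at 80.3 and 77.4 CPM, MEF2C, of muscle, at 31.2 and 25.4 CPM, MESP1 at 4.01 and 3.95 CPM and HAND2 at 5.96 and 5.28 CPM. TBXT, NKX2-5, MYOD1, MYF5 and MYOG had 0 counts in both, and the 6 contractile genes of the list were all off. In the urogenital list 5 of 7 genes were on, led by SALL1 at 54.8 and 50.9 CPM, SIX2 at 12.7 and 13.1 CPM, PAX2 at 21.8 and 18.9 CPM and WT1 at 24.1 and 22.9 CPM. The trophoblast factors TFAP2C and GATA3 stood at 53.1 and 47.3 CPM and at 19.2 and 15.1 CPM, while CGA, ELF5 and PSG1 had 0 counts in both. Of 10 neural crest and melanocyte genes, 3 were on (TFAP2A at 24.9 and 22.3 CPM, MITF at 11.2 and 13.3 CPM and FOXD3 at 3.74 and 4.28 CPM), and SOX9, SOX10, TFAP2B, TYR and MLANA had 0 counts in both. Of 10 endothelial genes, 2 were on, FLT1 at 14.7 and 15.4 CPM and KDR at 1.84 and 4 CPM, and CDH5, TEK, VWF and ERG were among the 7 at 0 counts.

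**Figure D2:**
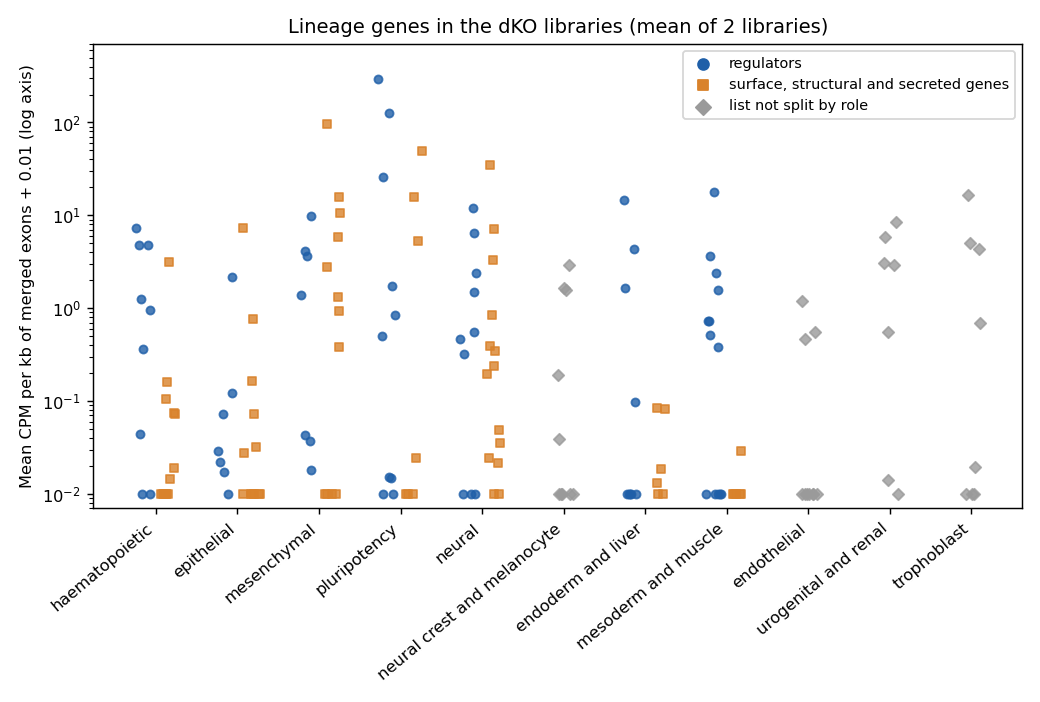
Mean CPM per kb of merged exons of the 2 dKO libraries, plus 0.01 and on a log axis, for each member of the 11 lineage lists (circles for regulators, squares for surface, structural and secreted genes, diamonds for lists not divided). SOX2 is the highest point at 296 CPM per kb, and members at 0 counts lie on the lowest line at 0.01.

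The promoters of regulators that were on and off can be compared by their sequence. Those of 4 genes are printed here because they belong to a pair of developmental regulators that were on, SOX2 and PAX6, and a pair that were off, TBXT, the mesoderm factor brachyury, and NANOG. Each line gives the 200 bases before the start of the gene in RefSeq (table on GRCh38.p14), 5′ to 3′ on the gene's own strand, with each CpG dinucleotide in capitals. Each matched GRCh37 at 1 place, and the positions there are chr3:181429513-181429712 on the plus strand for SOX2, chr11:31839510-31839709 on the minus strand for PAX6, chr6:166582144-166582343 on the minus strand for TBXT and chr12:7941798-7941997 on the plus strand for NANOG.
SOX2: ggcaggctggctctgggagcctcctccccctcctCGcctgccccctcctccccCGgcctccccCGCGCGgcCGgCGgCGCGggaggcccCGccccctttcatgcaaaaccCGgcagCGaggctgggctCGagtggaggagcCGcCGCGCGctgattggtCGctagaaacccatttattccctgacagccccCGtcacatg
PAX6: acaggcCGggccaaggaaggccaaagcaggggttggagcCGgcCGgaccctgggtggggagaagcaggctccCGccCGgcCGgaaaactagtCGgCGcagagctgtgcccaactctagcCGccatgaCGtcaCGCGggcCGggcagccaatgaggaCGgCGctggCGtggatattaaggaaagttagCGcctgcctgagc
TBXT: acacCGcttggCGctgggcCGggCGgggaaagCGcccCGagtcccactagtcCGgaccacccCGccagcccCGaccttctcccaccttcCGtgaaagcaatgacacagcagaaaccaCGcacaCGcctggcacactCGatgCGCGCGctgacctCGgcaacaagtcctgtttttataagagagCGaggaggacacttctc
NANOG: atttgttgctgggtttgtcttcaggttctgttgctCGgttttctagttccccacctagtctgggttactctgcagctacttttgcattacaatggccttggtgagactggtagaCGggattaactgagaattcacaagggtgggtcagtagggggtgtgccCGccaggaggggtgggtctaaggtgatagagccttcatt
The SOX2 stretch held 19 CpG dinucleotides, that of PAX6 17, that of TBXT 18 and that of NANOG 3. TBXT had 0 counts in both libraries with a promoter about as rich in CpG as that of SOX2.

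CpG content followed the state of protein-coding genes at large. It was counted in 300 bases around the start of the canonical transcript (250 before and 50 after), on the GRCh37 genome, as the observed number of CpG over the number that the C and G content of the stretch would give. The median was 0.867 for the 11955 genes that were on with a value (quartiles 0.750 and 0.968), 0.621 for 1200 trace genes and 0.317 for 5966 genes that were off (quartiles 0.165 and 0.644). A ratio over 0.6 was found in 90.3% of promoters of genes that were on, 52.2% of those that were trace and 28.1% of those that were off, beside 68.5% of all. The letters TATAAA, searched on both strands, stood in 4.47%, 10.8% and 17.8% of the same promoters and in 9.02% of all. Among the lineage genes the ratio was over 0.6 in 46 of 65 that were on and in 26 of 86 that were off. These are descriptions of sequence, and the genes are not independent replicates.

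**Figure D3:**
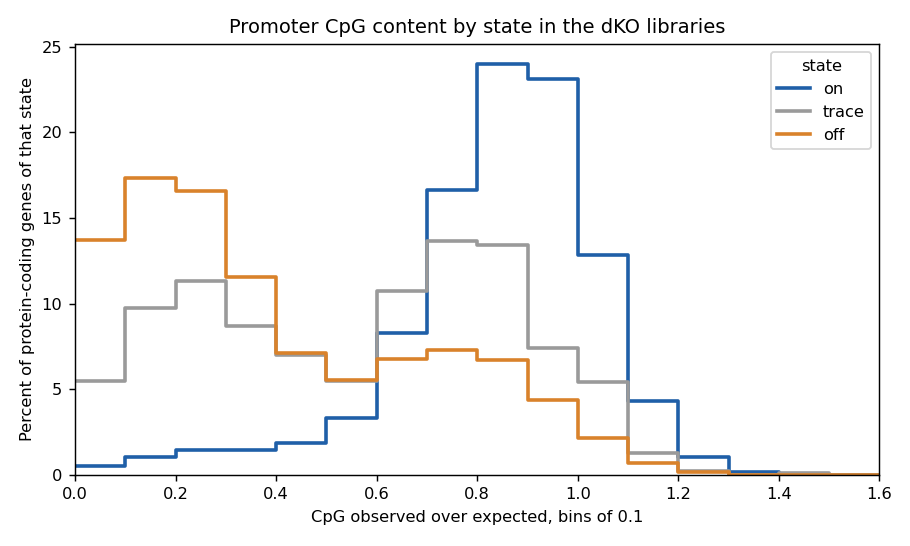
Percent of protein-coding genes of each state (on, trace, off) against the CpG observed over expected ratio of 300 bases around the transcript start, in bins of 0.1. Genes that were on peak near the median of 0.867 and genes that were off lie mostly below 0.6, with a second, lower rise near 0.8.

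Cell-cycle genes were on almost without exception. Of 68 genes in 6 lists, 67 (98.5%) were on, and TP63, a transcription factor of epithelial stem cells, had 0 counts in both libraries. Among G1 kinases CDK4 led per kilobase at 277 CPM in library 1 and 285 in library 2, ahead of CDK2 at 114 and 119 CPM and CDK6 at 181 and 177 CPM in libraries 1 and 2. Each of the D-type cyclins was on, and CCND1, the best known, stood at 49 and 51.8 CPM. CCNB1, the mitotic cyclin, stood at 361 CPM in library 1 and 331 in library 2, CCNA2 at 209 and 199 CPM, CCNB2 at 197 and 187 CPM and CDK1, their kinase, at 246 and 285 CPM. The replication clamp PCNA stood at 365 and 401 CPM, the licensing helicase subunits MCM7 and MCM3 at 749 and 750.2 CPM and at 476 and 452 CPM, and MCM6 at 396 and 403 CPM. Of the mitosis genes TOP2A, which untangles chromosomes, stood at 1157 CPM in library 1 and 1297 in library 2, MKI67, the proliferation antigen, at 969.9 and 919 CPM, TPX2 at 342 and 318 CPM and CDC20 at 203 and 168 CPM. These are levels of RNA in the whole culture and give no share of cells in a phase.

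Genes that restrain the cycle were on beside those that drive it. All 7 CDK inhibitors were on, at a median of 3.99 CPM per kb beside 40.8 for the S, G2 and M cyclins and kinases. CDKN2C stood at 72 and 72.7 CPM, CDKN2A, the tumour suppressor locus of p16 and ARF and a known Polycomb target, at 45.8 CPM in library 1 and 45.4 in library 2, CDKN1B at 94.9 and 90.4 CPM and CDKN1C at 9.21 and 10.6 CPM. RB1, the retinoblastoma protein gene, stood at 180.3 and 185 CPM, E2F1 at 72.8 and 67.7 CPM and E2F4 at 90 and 80.8 CPM.

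Most receptors and transducers of the signalling lists were on, and 58 of 119 ligands were. Of 337 signalling entries, 231 (68.5%) were on, 21 were trace and 85 were off, beside 61.8% of protein-coding genes. By role, 83 of 109 receptors (76.1%), 78 of 86 transducers and targets (90.7%), 58 of 119 ligands (48.7%) and 12 of 23 inhibitors (52.2%) were on, and no test was made between roles. GDF10 had no entry under that symbol and is not counted.

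In Hedgehog signalling the ligands and the receptors were in opposite states. The 3 ligands SHH, IHH and DHH were all off, and DHH had 0 counts in both libraries. All 7 receptors and coreceptors were on, including SMO, the signal-passing receptor, at 75 CPM in library 1 and 71.3 in library 2 and PTCH1, the receptor that restrains it, at 88.9 CPM in library 1 and 72.4 in library 2. HHIP stood at 21.7 and 22.3 CPM and CDON at 33.9 and 34.7 CPM. Of the transducers, SUFU stood at 50.6 and 44.6 CPM, the factors GLI2 and GLI3 at 39.4 and 29.2 CPM and at 39.7 and 40.9 CPM, and the cilium kinesin KIF7 at 24.3 and 21.8 CPM. GLI1, a target of the pathway, stood at 3.47 and 3.95 CPM.

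In WNT signalling 16 of 18 receptors and all 14 transducers and targets were on, beside 9 of 23 ligands and 5 of 12 inhibitors. LGR4, a receptor for R-spondins, led the receptors at 137 CPM in library 1 and 139 in library 2, followed per kilobase by the coreceptor LRP6 at 153 and 165 CPM, FZD6 at 55.4 and 51.3 CPM and LRP5 at 59.6 and 62.5 CPM. The transducer CTNNB1, beta-catenin, stood at 598 and 597 CPM and the scaffolds DVL1, DVL3 and DVL2 at 59.3 and 69 CPM, 100.4 and 89.8 CPM and 65.7 and 60.9 CPM. WNT10B, WNT11, WNT3 and WNT5B led the ligands, and the first of them stood at 12.5 and 11.6 CPM. SFRP1, a secreted inhibitor, was on at 119 CPM in library 1 and 144 in library 2, and DKK4, SFRP4, SFRP5 and WIF1 had 0 counts in both libraries. ZNRF3, which removes receptors from the surface, stood at 45.3 and 39.2 CPM, and DKK3 and DKK2 at 11.4 and 17.6 CPM and at 2.55 and 4.28 CPM.

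In the TGF-beta and BMP list 13 of 27 ligands, 11 of 14 receptors, 7 of 11 inhibitors and 10 of 12 transducers and targets were on. TGFB1 stood at 41.9 and 42.3 CPM, BMP7 at 59.8 and 61.4 CPM, INHBB at 26.4 and 30.3 CPM and GDF11 at 75 and 68.6 CPM. The receptors TGFBR1 and BMPR2 stood at 130.5 and 136 CPM and at 104 and 103 CPM, ACVR1B at 49.8 and 49.1 CPM and ACVR2B at 78 and 85.4 CPM. ENG and AMHR2 had 0 counts in both libraries. The inhibitor genes that led were BAMBI at 10.9 and 11.5 CPM and FST at 13.1 and 11.2 CPM. ID3, a target of BMP signals, was the highest of the transducers and targets per kilobase and stood at 83.6 CPM in library 1 and 54.2 in library 2, while ID4 had 0 counts in both.

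Notch components were mostly on, with 5 of 6 ligands, 3 of 4 receptors and 11 of 12 transducers and targets. JAG2 stood at 72.4 and 75 CPM and JAG1 at 63.7 and 62.1 CPM, NOTCH2 at 244 CPM in library 1 and 218 in library 2, and NOTCH4 had 0 counts in both libraries. The cofactor MAML1 stood at 114 and 96.1 CPM, the target and inhibitor NRARP at 37.1 and 42.9 CPM, the DNA-binding partner RBPJ at 191 and 199.9 CPM and HES7 at 13.7 and 14.8 CPM.

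FGF receptors were on in 6 of 7 cases and the FGF family genes listed as ligands in 6 of 22. That list also holds intracellular members such as FGF13. FGFR1 led at 290.1 CPM in library 1 and 268 in library 2, with FGFR4 at 36.2 and 41.3 CPM and FGFR2 at 90.5 and 76.7 CPM, and the coreceptor KLB had 0 counts in both libraries. FGF2 was the leading ligand per kilobase at 40.2 and 42.8 CPM, with FGF13, an intracellular family member, at 74.6 and 81 CPM. In the EGF family EGFR had 0 counts in both libraries, and ERBB3, ERBB4 and ERBB2 were on at 18.2 and 20.2 CPM, 8.62 and 12.1 CPM and 4.06 and 6.11 CPM. Of 11 EGF-type ligands 5 were on, led by HBEGF at 8.13 and 6.45 CPM, and AREG, EREG, BTC, EPGN and NRG3 had 0 counts in both. MET, the receptor of hepatocyte growth factor, stood at 181 CPM in library 1 and 203 in library 2 while its ligand HGF was off. PDGFRA, IGF1R and TYRO3 followed MET per kilobase, IGF1R at 88.3 and 89.8 CPM and TYRO3 at 63.3 and 60.3 CPM. KIT, the receptor of stem cell factor, stood at 47.5 and 58.7 CPM with its ligand KITLG at 32.6 and 33.8 CPM. MDK, midkine, was the highest growth factor per kilobase at 272 CPM in library 1 and 264 in library 2, ahead of VEGFB at 35.1 and 39.4 CPM, PDGFC at 42.2 and 44.5 CPM and IGF2 at 40.7 and 40.7 CPM.

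Of 22 cytokine receptors 13 were on and 9 off, led by the interferon receptor chains IFNGR2 at 65 and 61.6 CPM and IFNGR1 at 44 and 42.9 CPM and by LIFR at 77.9 and 90.8 CPM and IL6ST at 79.1 and 79.5 CPM. CSF2RB, CSF3R, IL2RA and IL2RB had 0 counts in both libraries. CSF2RA and IL3RA were also listed at 0 counts, but they lie in a pseudoautosomal region that the genome sequence can hold in identical copies, where unique reads cannot be placed, so that their expression is uncertain. SLC25A6, the mitochondrial carrier of ADP and ATP in most cells, and CD99, neighbours in the same region named here after their values were seen, were listed at 0 counts in both libraries as well. Of the other receptors, the erythropoietin receptor EPOR was on at 3.52 and 4.61 CPM. STAT3, a signal transducer of this family, stood at 100.1 and 95 CPM, TYK2 at 67.7 and 69.1 CPM, SOCS2 at 49.1 and 47 CPM and JAK1 at 86.3 and 90.6 CPM. All 8 ephrins and 10 of 14 Eph receptors were on, led by EFNB1 at 223 CPM in library 1 and 187 in library 2 and EPHA2 at 39.3 and 36 CPM. In the Hippo list 16 of 17 genes were on, with YAP1, its transcriptional effector, at 146 and 138 CPM, TEAD1 at 238 and 224 CPM, TEAD4 at 45 and 42.6 CPM and WWTR1 at 131 and 127 CPM, and ANKRD1 had 0 counts in both.

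**Figure D4:**
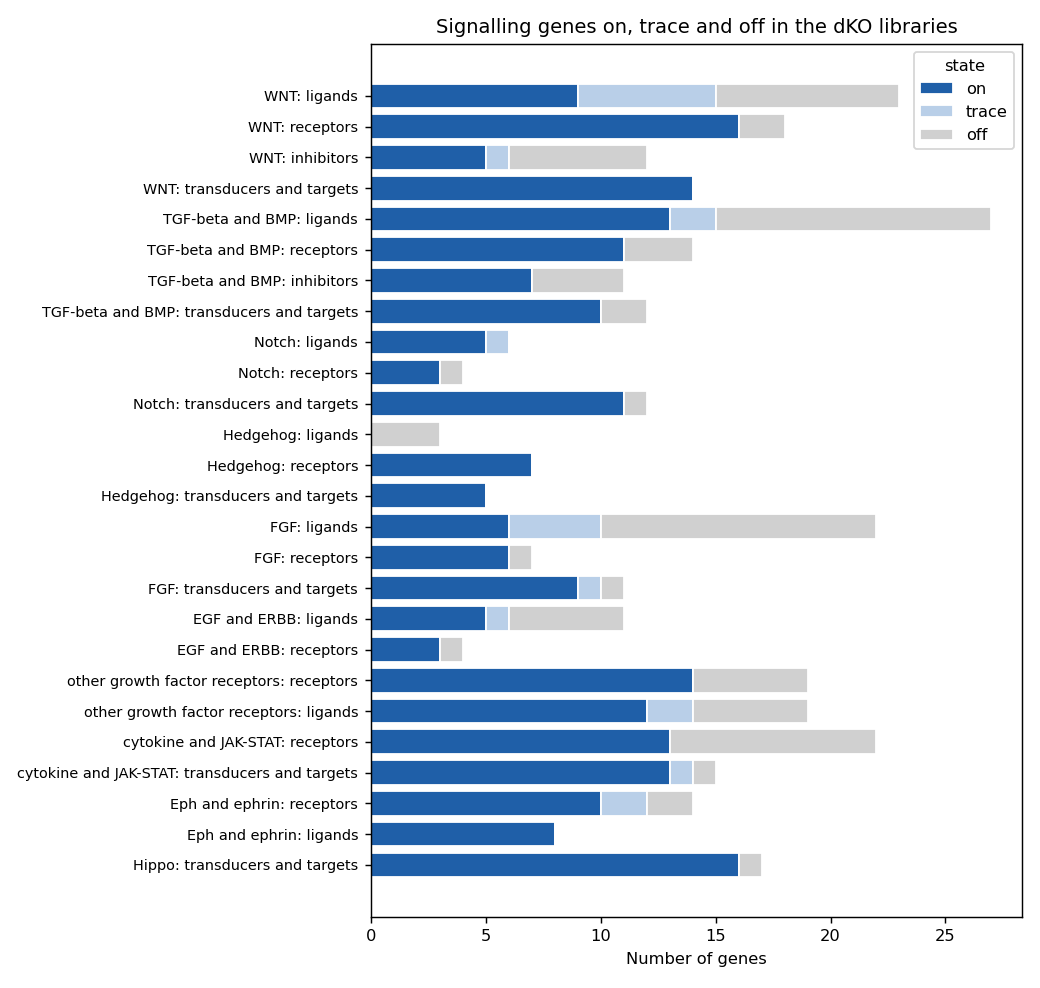
Number of genes on (dark), trace (pale) and off (grey) in the 2 dKO libraries for each signalling list and role. The 3 Hedgehog ligands are all off and the 7 Hedgehog receptors all on. FGF family genes listed as ligands, some of them intracellular, are on in 6 of 22 cases beside 6 of 7 FGF receptors.

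Lists that report the state of a culture were mostly on, 102 of 118 genes in all. Cholesterol synthesis genes were on in 22 of 23 cases, with NSDHL at 153 and 156 CPM, EBP at 136 and 129 CPM and FDPS at 254 and 293 CPM. Interferon response genes were on in 11 of 18 cases at a median over the list of 0.513 CPM per kb, and BST2, a surface protein that tethers viruses, led at 111 and 114 CPM while MX2 had 0 counts in both. Of the immediate early genes 13 of 16 were on, led by MYC and by BTG2 at 39.6 and 39.7 CPM, with FOS and FOSB trace. HSPA1A and HSPA1B, the inducible heat shock genes, were listed at 0 counts in both libraries. They are near-identical copies, and reads that fit both were counted for neither, so that their expression is uncertain.

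Levels in the libraries were highly correlated, and many genes still differed by more than counting error. Over 14568 genes with a CPM above 0.5 in both, the Pearson correlation of log2 CPM was 0.993, a description across genes that share both libraries. At an adjusted p below 0.05 (exact two-sided binomial test on the counts, Benjamini-Hochberg over these genes) 3488 genes differed, and of these, 197 genes (1.35% of those tested) were more than 1.5-fold higher in library 2 and 65 (0.446%) more than 1.5-fold lower. These 262 are the genes referred to as called. This test compares the libraries themselves and covers counting error only. With a negative binomial test in edgeR, which takes the spread over all genes between these libraries as the error (coefficient of variation 7.64%), 12 genes were called, 6 in each direction. Ratios are given as log2 of library 2 over library 1 after TMM scaling, and intervals are exact Clopper-Pearson ones at 95%.

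The spread between the libraries exceeded counting error at all but the lowest levels. Between 20 and 100 CPM the log2 ratios of 6074 genes had an SD of 0.171, where counting alone would give 0.0744. Above 500 CPM the SD of 228 genes was 0.146 beside 0.0174 from counting. Between 0.5 and 1 CPM it was 0.504 beside 0.553. Called genes were low, with a median mean level of 4.35 CPM beside 30.0 CPM for all tested genes, and 84 of the 262 were not protein-coding.

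PADI2, an enzyme that converts arginine to citrulline in proteins (chromosome 1, 17393256-17445946, minus strand, GRCh37), was farthest above no difference. It stood at 0.65 CPM in library 1 and 3.28 in library 2, a log2 ratio of 2.31 (interval 1.40 to 3.35, exact binomial adjusted p = 2.81e-07). ALDOC, a glycolytic aldolase (chromosome 17, 26900133-26903966, minus strand), stood at 1.95 CPM in library 1 and 5.39 in library 2, a log2 ratio of 1.45 (0.88 to 2.04). MIR210HG, the host transcript of the hypoxia-responsive microRNA miR-210 (chromosome 11, 565657-568457, minus strand), stood at 1.14 CPM in library 1 and 3.45 in library 2, a log2 ratio of 1.58 (0.84 to 2.37). PTP4A3, a phosphatase, stood at 1.68 CPM in library 1 and 4.72 in library 2, and RASSF4, a Ras-association protein gene, at 7.21 CPM in library 1 and 14.3 in library 2. OLMALINC, a long noncoding RNA, was the most abundant of the 10 at 39.99 CPM in library 1 and 69.9 in library 2, a log2 ratio of 0.79 (0.65 to 0.92, exact binomial adjusted p = 1.75e-30). The remaining genes of this direction were IPCEF1 at 4.44 and 9.39 CPM, AKAP6, an anchor of protein kinase A, at 3.68 and 7.84 CPM, KLHDC1 at 0.759 and 2.33 CPM and ACTG1P17 at 0.867 and 2.5 CPM. The last is a processed copy of ACTG1, and the source of its reads is uncertain. All 10 stood at under 10 CPM in library 1 except OLMALINC.

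Mitochondrial RNAs other than messenger RNAs stood out among the genes lower in library 2. MT-TV, a transfer RNA gene next to the ribosomal RNA genes (the mitochondrial genome, 1602-1670, plus strand), had 47 and 11 counts in libraries 1 and 2, a log2 ratio of -2.08 (-3.17 to -1.11, exact binomial adjusted p = 4.01e-05). MT-TT had 90 and 31 counts and MT-TP had 90 and 41 counts. All 6 transfer RNA genes tested and both ribosomal RNAs had a ratio below 0, and 5 of these 8 were called lower, beside 0.446% of all genes tested: MT-TV, MT-TT, MT-TP, MT-TI and MT-RNR2, the last with a log2 ratio of -0.63 (-0.65 to -0.61). Of the 13 mitochondrial protein-coding genes none was called, 8 had a ratio above 0, and their range was -0.47 for MT-ND6 to 0.30 for MT-ATP8. Nuclear copies of these genes are near-identical to them, and reads that fit both were not counted.

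PER2 and BRPF3 led the nuclear protein-coding genes that were lower in library 2. PER2, a repressor of the circadian clock (chromosome 2, 239152685-239198743, minus strand), stood at 14.2 CPM in library 1 and 6.84 in library 2, a log2 ratio of -1.07 (-1.40 to -0.76, exact binomial adjusted p = 1.32e-10). BRPF3, a scaffold of histone acetyltransferase complexes (chromosome 6, 36164521-36200567, plus strand), stood at 66.3 CPM in library 1 and 38 in library 2, a log2 ratio of -0.82 (-0.96 to -0.69). FAM13B stood at 71.1 and 43.9 CPM and MT1E, a metal-binding metallothionein, at 42.3 and 25.1 CPM. The pseudogenes GPS2P1 at 2.17 and 0.723 CPM and ENSG00000213976 at 3.09 and 1.22 CPM completed the 10, with uncertain sources of their reads. The 12 genes that the negative binomial test also called were PADI2, ALDOC, PTP4A3, IPCEF1, RASSF4 and OLMALINC above and MT-TV, MT-TT, PER2, BRPF3, MT1E and FAM13B below.

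**Figure D5:**
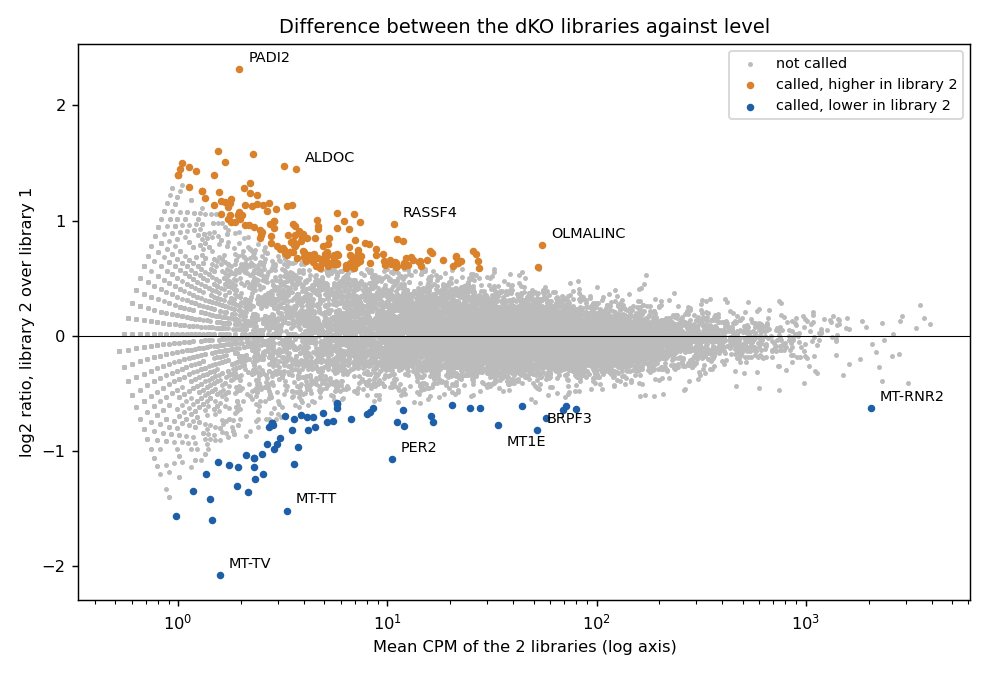
Log2 ratio of library 2 over library 1 against mean CPM (log axis) for the 14568 genes tested, with called genes in colour (197 higher, 65 lower). Most calls lie below 20 CPM, and MT-RNR2 at a mean of 2049 CPM stands alone at the high end.

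Of 72 lineage entries tested, 4 were called higher in library 2 (LMO2, KLF4, RORB and KDR) and 0 lower, beside 1.35% higher and 0.446% lower of all genes tested, at a median log2 ratio of 0.07 beside 0.00 for all genes tested. The share called depended on level, at 6.39% of genes with a mean of 1 to 5 CPM and 0.362% at 20 to 100 CPM. LMO2, KLF4 and KDR had means between 1 and 5 CPM, and RORB had a mean of 5.29 CPM. Shares at like level were not compared. KLF4, a factor of epithelia and reprogramming, stood at 1.08 CPM in library 1 and 2.5 in library 2, and RORB, a neural nuclear receptor, at 3.74 and 6.84 CPM. The smallest adjusted p of these 4 was 0.00087 for RORB by the exact binomial test. Of 67 cell-cycle genes tested none was called in either direction, and their log2 ratios ran from -0.36 to 0.51. Of 236 signalling entries 4 were called higher (KDR, DKK2, DKK3 and ETV4) and 1 lower, ID3, shares near the 1.35% and 0.446% of all genes tested. DKK3, a Dickkopf family protein, stood at 11.4 CPM in library 1 and 17.6 in library 2 with a log2 ratio of 0.61 (0.35 to 0.87). ETV4, a target of FGF signals, stood at 4.82 and 8.34 CPM. ID3 had a log2 ratio of -0.64 (-0.76 to -0.53), and the related ID1 and ID2 stood at 11.8 and 8.73 CPM and at 18.5 and 15.2 CPM without being called.

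Of 26 genes of glycolysis and hypoxia tested, 3 were called higher in library 2 and 0 lower, beside 1.35% and 0.446% of all genes tested, at a median log2 ratio of 0.01. They were ALDOC, PDK1, a kinase that restrains entry of pyruvate into mitochondria, at 41.4 CPM in library 1 and 63.5 in library 2, and NDRG1 at 0.813 and 2.17 CPM. ALDOC and NDRG1 had means of 3.67 and 1.49 CPM, and 6.39% of all genes with a mean of 1 to 5 CPM were called. PDK1 had a mean of 52.4 CPM, and 0.362% were called at 20 to 100 CPM. The negative binomial test called ALDOC and neither PDK1 nor NDRG1. Of the 26 genes, 15 had a ratio above 0. CA9, also of this list, was off in both libraries, and the glycolytic enzymes that led the abundance ranking were not called.

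Most genes of some groups had a ratio on the same side of 0 with few or no calls. All 10 heat shock genes tested had a ratio below 0, with a median log2 ratio of -0.27, and HSPA8 stood at 2614 and 2021 CPM and HSPH1, a chaperone cofactor, at 530.0 and 396 CPM. Of 22 cholesterol synthesis genes 18 had a ratio above 0 (median 0.10), with HMGCS1, an early enzyme of the pathway, at 308 and 389 CPM. Of 80 ribosomal protein genes 65 had a ratio above 0 (median 0.10), and of 35 proteasome genes 28 had a ratio below 0 (median -0.08). The heat shock, cholesterol, ribosomal protein and proteasome genes held no call. Of 387 ZNF zinc finger genes 294 had a ratio below 0 (median -0.13), 7 were called lower and 1 higher, beside 0.446% and 1.35% of all genes tested. None of these groups was tested as a set, and over all genes tested 50.6% had a ratio above 0.

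GC content moved with the ratio between the libraries. Over 8560 genes above 20 CPM, Spearman's rho of the log2 ratio with the GC percent of the exons was -0.25, and the median log2 ratio was 0.07 in the tenth of genes lowest in GC and -0.03 in the tenth highest. After a fitted GC trend was taken out, the median log2 ratio of the heat shock genes was -0.25 with 10 of 10 below 0, that of the ZNF genes was -0.14, that of the ribosomal protein genes 0.13 and that of the cholesterol synthesis genes 0.15. Chromosome medians over the same genes lay between -0.08 for chromosome 19 and 0.05 for chromosome 18.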

How the data were processed

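RNA from 2 dKO cultures of HAP1 cells was made into stranded libraries after poly(A) selection. Per the labels and the study's methods, the authors trimmed reads with cutadapt (1.12) through Trim Galore (0.4.4), removed ribosomal RNA reads with Bowtie (1.2) and mapped the rest to hg19 with STAR (2.5.2b). The deposited values are raw counts of uniquely mapped reads per gene, in 3 columns by strand. The column on the kit's strand was used, and the other strand column held 4.24% and 4.06% of stranded counts. Rows that name no gene (27.3% and 27.6% of the column) were left out. Unique reads made up 84.9% and 84.3% of reads, and reads that fit several places or several genes were not counted.

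Symbols, biotypes, exon lengths and GC came from GENCODE release 44 lifted to GRCh37, which matched 96.1% of gene IDs. RefSeq promoters (matched by symbol, 4 of 4 shown) were located in GRCh37. TMM and the negative binomial test used edgeR (4.0.16), RLE size factors DESeq2 (1.42.0), and other steps Python (3.11.15) with scipy (1.17.1). The binomial test was run on simulated counts that held counting error alone. That is the error the test assumes, so the simulation says nothing about spread beyond counting. With 1 group there was no contrast for a replicated count model. The genes named were the targeted genes with BAP1, BCR and ABL1, the most abundant 20 (10 per kb), up to 4 members on per list and role by CPM per kb, members at 0 counts where 5 or fewer, and the 10 called genes in each direction whose interval bound was farthest from no difference. Some further members were named after their values were seen. A few genes that this rule names are not reported here. The members and lists were chosen with earlier results of these data known. The binomial p-values between the libraries cover counting error only and do not measure the spread between cultures. Differences between these samples may be technical.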

Additional observations from a re-analysis of the deposited data

Results flagged for a closer look

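Some genes that were off had reads on the strand that the kit does not read for that gene. Whether these reads were counted for another gene that overlaps on that strand was not tested. There were 1174 genes with 3 counts or fewer in both libraries on the gene's own strand that reached 1 CPM or more in both on the other strand, 810 of them long noncoding RNAs, 197 protein-coding and 67 pseudogenes. RPL30-AS1, annotated antisense to RPL30, had 0 counts in both libraries on its own strand and 8067 and 8693 on the other. TRIM59, a protein-coding gene, had 3 and 1 counts on its own strand and 3324 and 3109 on the other. These genes count as off above. The gap rule for libraries that stand out from their group needs 4 or more libraries, so it could not be applied to these 2.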

How the results depend on the processing

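No paired analysis was possible because a single group of 2 libraries is described and it is compared with no other. Calling genes on at 0.5 CPM or at 1 CPM per kb, off at 0 counts, from unstranded counts or from a single library left the numbers of genes on, of protein-coding genes off and of list genes on within 1.5 times of those given. From a single library the number of genes on was 13710 and 13863, that of protein-coding genes off 6363 and 6373, and that of list genes on 461 and 470. The share of the 20 most abundant genes, a mean of 5.25%, was 5.71% with unstranded counts and 4.47% without mitochondrial genes, and 5.21% to 5.29% in single libraries. The share of nuclear protein-coding genes, a mean of 95.2%, was 94.6% and 97.8% in the same settings, and that of pseudogenes, 0.393%, was 0.428% and 0.404%. The cause was not tested beyond what leaving out the mitochondrial counts does to a total. The 262 genes called between the libraries became 86 with a CPM above 5, 69 at 2-fold, 3488 by adjusted p alone, 7 with intervals widened by the chi-square per gene of 7.48, and 12 with the negative binomial test, which was added after the data had been seen. They numbered 244 to 283 with library totals, RLE size factors, unstranded counts, no filter or a GC correction. The log2 ratios of the 20 named genes kept their sign and their call in all 106 values available from these alternatives and the CPM filter. That filter left a value only for RASSF4, OLMALINC, PER2, BRPF3, MT-RNR2, MT1E and FAM13B, and unstranded counts left none for MT-TT. The negative binomial test called 12 of the 20 and not the others. Without 1 library no ratio between libraries exists. Depth limits the state off to under 0.163 and 0.167 CPM per library.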
